A study of Mus musculus with 23 samples.

Results

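The transcriptome of cultured B16F10 cells, a mouse melanoma line, was compared between cells edited with sg495, a single guide RNA against Nr2f6, and control cells. The comparison used 4 of the 23 RNA-seq libraries of the series, 2 of sg495 and 2 of control, and covered the 11997 of 47643 genes that averaged 1 TPM or more (transcripts per 1000000, a level corrected for gene length and scaled to 1 total in every library) in these 4 libraries. Controls carry the genotype label WT, and both sg495 and sg492, a second guide, carry the label NR2F6 KO. The edited cells had received Cy3-labeled guide RNA with Cas9 protein and were sorted for Cy3, so they are described as a sorted population and not as a clone. The other libraries came from bulk tumors, from tumor cells isolated with magnetic beads, and from NR2F6 wild-type samples with an IgG or anti-PD1 label. Sorted tumor cells, with 2 sg495 and 2 control libraries, are used below only beside the cultured sg495 values. The 2 cultured sg492 libraries entered the fit and so share in the estimate of spread behind every p-value of sg495, and their own values are given side by side. The labels do not state whether libraries of a group came from separate cultures, so p-values measure the spread between these libraries, which may be technical.

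NR2F6 is an orphan nuclear receptor, a DNA-binding factor with no established natural ligand, that is known mainly as a repressor of cytokine genes in T cells. Several of the genes described below belong to the response to low oxygen. In that response, prolyl hydroxylases of the Egln family mark the alpha subunits of hypoxia-inducible factors (HIF) for destruction by the ubiquitin ligase Vhl while oxygen is present. When oxygen is scarce the alpha subunits persist, pair with Arnt and switch on genes of glucose uptake, glycolysis, mitochondrial turnover and blood vessel growth. Some of the target genes, including Egln1 and Egln3, feed back on the sensor itself.

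Nr2f6 RNA was lower in sg495 cells and was not absent. Its gene lies on chromosome 8 (GRCm38 chr8:71374123-71381960, minus strand). It was measured at 31.9 and 32.9 TPM in the controls and at 18.6 and 22.4 TPM in the sg495 libraries. The groups did not overlap, and the log2 fold change on the log2(TPM + 1) scale was -0.64 (SE 0.114, limma adjusted p = 0.0209). The call was lost when any 1 of the 4 libraries was left out, with adjusted p-values of 0.0995 and 0.113 without control 1 and control 2 and 0.11 and 0.0511 without sg495 1 and sg495 2. An edit can end the protein without removing the RNA, so this level does not measure the editing itself. Of the genes that the study follows, Nacc1, a transcriptional corepressor on the same chromosome, fell from 89.8 and 86.4 TPM to 54.3 and 58.8 TPM (log2 fold change -0.63, SE 0.0532, limma adjusted p = 0.00246). Most genes of chromosome 8 were lower too, with a median log2 fold change of -0.33 and 91.0% of tested genes below 0. Medians were -0.33 and -0.37 in the windows of the chromosome starting at 70 and 80 Mb, which hold Nr2f6 and Nacc1. How much of the fall of Nr2f6 or Nacc1 was shared with neighboring genes was not tested. Fkbp10, a chaperone of collagen folding on chromosome 11, fell from 11.5 and 9.09 TPM to 5.3 and 6.7 TPM (log2 fold change -0.69, SE 0.162, limma adjusted p = 0.0452). The call of Nacc1 was lost without sg495 1, where its fold change was short of 1.5, and that of Fkbp10 without any 1 of the 6 libraries (adjusted p up to 0.209). The call of Fkbp10 was also lost in a fit of the 4 libraries alone (adjusted p = 0.063) and without the expression filter (adjusted p = 0.127). Cxcl10, a chemokine induced by interferon, stood at 22.9 and 22.6 TPM in control and at 35.0 and 33.8 TPM in sg495 cells, just under the fold change of 1.5 required here (log2 fold change 0.58, SE 0.0559, limma adjusted p = 0.0036).

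The cultured libraries were alike in some measures of composition and differed in others. Between 11925 and 12045 genes per cultured library had at least 1 TPM, and the 2 libraries of a group correlated across genes with r = 0.9881 in control and r = 0.9876 in sg495. Pigment cell genes were abundant in all of them, with a summed level of 23400 to 23900 TPM over 24 genes, and Sox10, a transcription factor of pigment cells, had a log2 fold change of 0.05. Of 21 leukocyte genes, 13 or 14 were at 0 in each cultured library, including Ptprc, the gene of the leukocyte surface protein CD45, and Cd3e, part of the antigen receptor of T cells. Genes of chromosome 8 took 2.68% and 2.72% of the TPM in the sg495 libraries, 3.46% in both controls and 3.47% and 3.43% in the sg492 libraries. The summed leukocyte markers were higher and the summed fibroblast markers lower in both sg495 libraries than in both controls, with values given beside the genes they touch. The leukocyte sum includes Lyz2, at 0.79 and 0.92 TPM in the controls and 3.07 and 2.23 TPM in the sg495 libraries. The fibroblast sum includes Postn, at 6.69 and 6.83 TPM in the controls and 3.75 and 3.8 TPM in the sg495 libraries.

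A total of 240 genes were decreased and 90 were increased in sg495 cells, 2.0% and 0.750% of the genes tested. Calls needed a limma adjusted p below 0.05 together with a 1.5-fold change. Outside chromosome 8, 183 of 11324 genes fell (1.62%) and 89 rose. On chromosome 8, which carries Nr2f6, 56 of 644 genes fell (8.70%) and 1 rose. The median log2 fold change of chromosome 8 was -0.33, against -0.01 to 0.03 on the other autosomes, and in 13 windows of 10 Mb along it the median lay between -0.40 and -0.25. Decreases outside chromosome 8 were therefore counted apart. All 183 had both sg495 libraries below both controls, beside 2925 of the 11324 genes tested outside chromosome 8. Of the 183, 56 changed by at least 2-fold, and 165 were protein-coding. The counts depended on each of the 4 libraries. Decreased genes numbered 125 without control 1, 135 without control 2, 125 without sg495 1 and 144 without sg495 2, and decreased genes outside chromosome 8 numbered 92, 95, 91 and 105. Increased genes numbered 44 without control 2, 36 without sg495 1 and 45 without sg495 2. Leaving out either sg492 library gave 218 decreased genes, 165 of them outside chromosome 8. With 2 libraries against 2, an exact permutation test of 1 gene cannot give a 2-sided p below 0.333, so all calls rest on the spread that limma pools across genes.

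**Figure D1:**
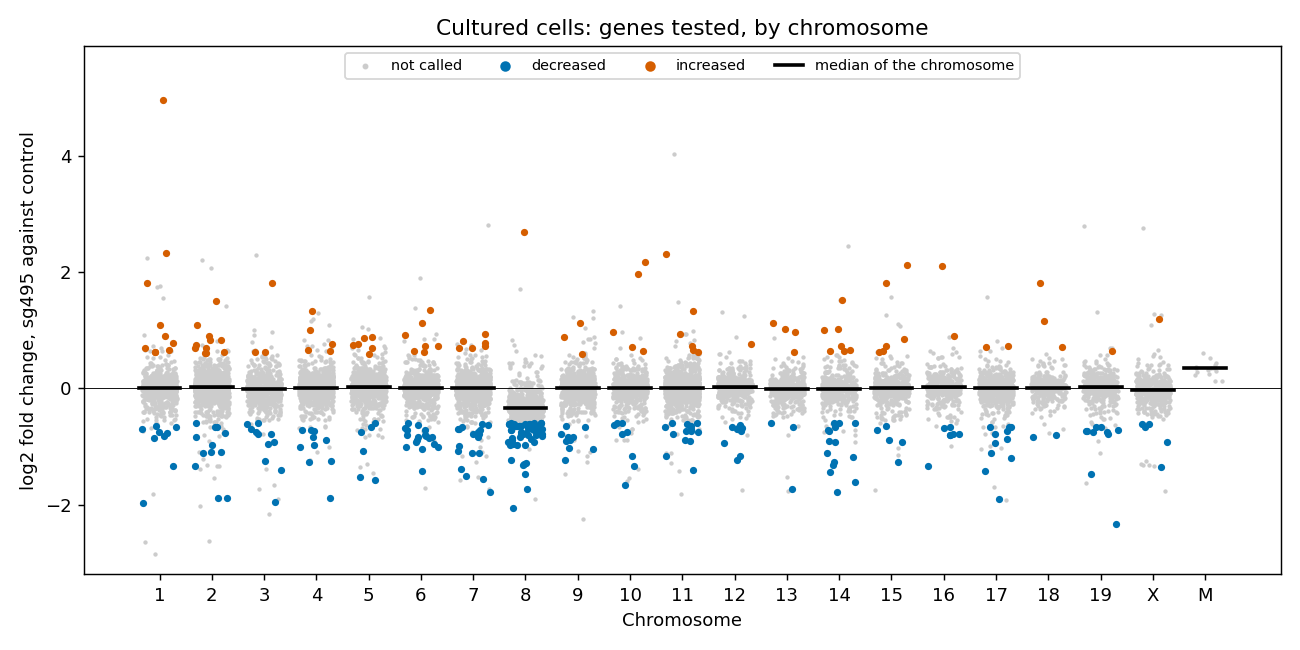
Log2 fold change of sg495 against control in cultured cells (vertical axis) for the genes tested, by chromosome (horizontal axis). Each point is 1 gene, blue where it was decreased, orange where it was increased and grey otherwise, and black bars are chromosome medians. The bar of chromosome 8 is at -0.33, and blue points outside chromosome 8 are spread over the other chromosomes.

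Genes of the hypoxia response had the largest share of decreased members among the 37 gene lists examined. The lists and their members were chosen with earlier results of these data known, so this rank is a description only. Of 25 tested members, 19 fell, against 2.0% of all genes tested. None rose by limma, and none was higher at an unadjusted p below 0.05. The median log2 fold change of the list was -0.79, beside 0.00 over all genes tested. In 23 of the 25, both sg495 libraries lay below both controls, beside 3448 of the 11997 genes tested. The summed level of the 25 genes was 3002 and 2894 TPM in the controls, 1498 and 1441 TPM in the sg495 libraries, and 2364 and 2277 TPM in the sg492 libraries. Selenbp1, a selenium-binding protein, stood on the list although its place among HIF targets is less certain. Without it 18 of 24 fell and the median remained -0.79.

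The most abundant of the strongly decreased genes was Bnip3, a mitochondrial outer membrane protein that promotes the removal of mitochondria by autophagy. Bnip3 was at 457 and 456 TPM in the controls and at 165 and 157 TPM in the sg495 libraries. The mean was 2.84-fold lower (log2 fold change -1.50, SE 0.04, limma adjusted p = 0.000186), and the 2 sg495 values were close to each other. Its relative Bnip3l, which serves in the same process, fell from 242 and 214 TPM to 142 and 129 TPM (log2 fold change -0.74, with an adjusted p of 0.0509 without sg495 2). Fam162a, a mitochondrial protein linked to cell death in low oxygen, fell from 540 and 551 TPM to 320 and 312 TPM (log2 fold change -0.78), and Higd1a, a small respiratory chain regulator, fell by the same log2 amount from 106 and 106 TPM. Mgarp, another mitochondrial protein of the oxygen response and chosen after its values were seen, fell from 31.8 and 30.7 TPM to 12.7 and 12.5 TPM (log2 fold change -1.25).

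Secreted and cell surface products of the program showed some of the largest folds. Car9, a surface carbonic anhydrase that buffers acid, was at 14.6 and 16.1 TPM in the controls and at 4.41 and 2.57 TPM in the sg495 libraries (log2 fold change -1.89, SE 0.199, limma adjusted p = 0.00466). Without control 2 its adjusted p was 0.0514. Adm, the precursor of the vasodilator adrenomedullin, was at 16.2 and 16.6 TPM in the controls and 4.25 and 3.81 TPM in the sg495 libraries (log2 fold change -1.79, SE 0.0928, limma adjusted p = 0.00078). Both genes were among the 25 largest decreases of protein-coding genes outside chromosome 8, which were chosen with groups apart. Adm kept its call without any 1 library. Vegfa, the main growth factor of blood vessels, fell from 82.9 and 80.5 TPM to 42.0 and 42.4 TPM (log2 fold change -0.94). Stc1, a secreted glycoprotein of calcium and phosphate handling, fell from 4.16 and 3.5 TPM to 0.42 and 0.37 TPM (log2 fold change -1.79), levels at which a fold on the log2(TPM + 1) scale understates the ratio of the means, 9.7. Pgf and Apln, growth factors that act on vessels, were also decreased, with log2 fold changes of -1.17 and -0.93. They were chosen after their values were seen.

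Intracellular members were decreased as well. Ddit4, an inhibitor of the growth kinase complex mTORC1, was at 113 and 112 TPM in the controls and at 33.6 and 35.9 TPM in the sg495 libraries (log2 fold change -1.66, SE 0.123, limma adjusted p = 0.00184). Ero1l, an oxidase of protein folding in the endoplasmic reticulum, fell from 446 and 400 TPM to 177 and 163 TPM (log2 fold change -1.31). Ndrg1, a stress-induced protein, had a log2 fold change of -0.88, Mxi1, a Myc antagonist, one of -0.67, and Rora, a nuclear receptor of the clock, one of -0.84. Rora lost its call without control 1, control 2 or sg495 1, with adjusted p-values of up to 0.0755. Ankrd37, an ankyrin repeat protein, had the largest log2 fold change of the list, -2.06, from 21.1 and 22.6 TPM to 6.43 and 3.04 TPM, but lies on chromosome 8. Its call was lost without control 1 or control 2 (adjusted p up to 0.0688).

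**Figure D2:**
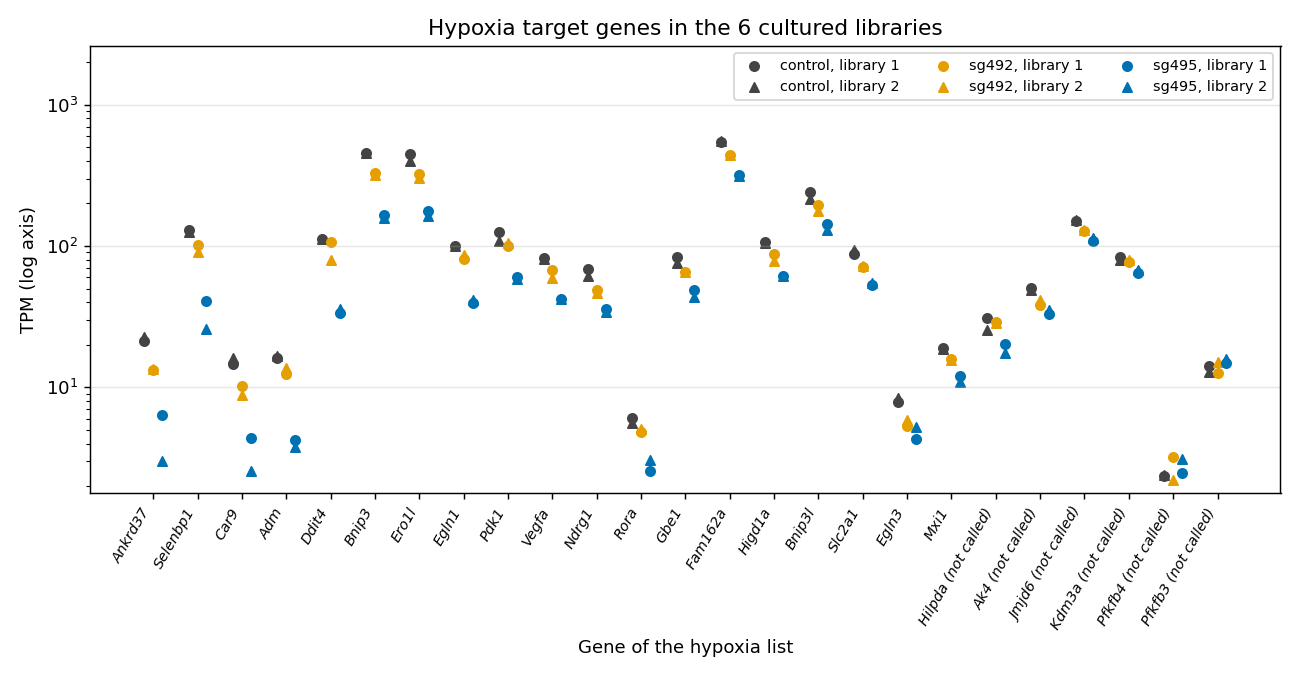
TPM (vertical log axis) of the 25 tested genes of the hypoxia list (horizontal axis, ordered by log2 fold change) in each of the 6 cultured libraries. Grey marks are control, orange sg492 and blue sg495, with a circle for library 1 and a triangle for library 2. In 23 genes both blue marks are below both grey marks; the 6 genes at the right were not called.

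The 6 members not called were Hilpda, Ak4, Jmjd6, Kdm3a, Pfkfb4 and Pfkfb3. The first 4 had log2 fold changes of -0.55, -0.53, -0.44 and -0.30 with limma adjusted p-values of 0.0296, 0.0066, 0.00283 and 0.0176, and were short of the fold required. Pfkfb4 and Pfkfb3, enzymes that set the level of a glycolytic activator, had log2 fold changes of 0.16 and 0.18 (limma adjusted p = 0.625 and 0.327).

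The oxygen sensor and its factors did not change as 1 block. The genes of this group were listed after values had been seen. Of 12 tested, 6 fell, beside 2.0% of all genes tested, with a median log2 fold change of -0.50. Hif1a, the main alpha subunit, was at 115 and 108 TPM in control and 104 and 103 TPM in sg495 cells (log2 fold change -0.11, SE 0.0462, limma adjusted p = 0.187), and Arnt had a log2 fold change of -0.16 (adjusted p = 0.151). Epas1, the other alpha subunit, fell from 8.93 and 8.67 TPM to 4.16 and 4.55 TPM (log2 fold change -0.87, limma adjusted p = 0.0055). The prolyl hydroxylase gene Egln1 fell from 101 and 100 TPM to 39.6 and 41.6 TPM (log2 fold change -1.29), but is on chromosome 8. Egln3, on chromosome 12, had a log2 fold change of -0.67 and lost its call without any of the 4 libraries (adjusted p up to 0.116), and Egln2 had one of 0.10 (adjusted p = 0.315). Vhl fell by 0.60 on the log2 scale, Bhlhe40, a repressor of the clock and of oxygen-dependent genes, by 0.85, and Siah1a, a ubiquitin ligase gene on chromosome 8, by 0.77. RNA levels of Hif1a say nothing of HIF protein, which is set mainly by its breakdown.

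The stretches just upstream of 4 of these genes are shown because HIF binds a short core sequence near many of its targets. They are the 250 bases before the gene start in RefSeq on GRCm38, 5′ to 3′ in the sense of the gene, and capitals mark the core ACGTG or GCGTG, or its reverse complement CACGT or CACGC. The 2 forms overlap where they share bases, as in CACGTG. The genes were chosen after their values were seen.
Car9, chr4:43506776-43507025, plus strand: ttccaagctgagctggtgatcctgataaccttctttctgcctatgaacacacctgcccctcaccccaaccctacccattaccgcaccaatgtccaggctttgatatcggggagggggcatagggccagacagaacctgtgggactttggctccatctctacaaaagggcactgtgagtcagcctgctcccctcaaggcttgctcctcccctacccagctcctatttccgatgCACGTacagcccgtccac
Adm, chr7:110627407-110627656, plus strand: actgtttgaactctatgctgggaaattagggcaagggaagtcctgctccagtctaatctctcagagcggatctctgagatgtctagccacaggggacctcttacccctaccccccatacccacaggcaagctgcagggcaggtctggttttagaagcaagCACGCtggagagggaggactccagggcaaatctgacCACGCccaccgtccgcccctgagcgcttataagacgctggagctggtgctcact
Ddit4, chr10:59951771-59952020, minus strand: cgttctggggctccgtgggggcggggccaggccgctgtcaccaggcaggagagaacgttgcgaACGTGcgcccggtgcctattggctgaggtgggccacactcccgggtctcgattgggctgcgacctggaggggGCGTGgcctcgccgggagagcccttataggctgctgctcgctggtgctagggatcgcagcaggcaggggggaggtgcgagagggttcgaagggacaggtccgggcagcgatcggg
Bnip3, chr7:138909507-138909756, minus strand: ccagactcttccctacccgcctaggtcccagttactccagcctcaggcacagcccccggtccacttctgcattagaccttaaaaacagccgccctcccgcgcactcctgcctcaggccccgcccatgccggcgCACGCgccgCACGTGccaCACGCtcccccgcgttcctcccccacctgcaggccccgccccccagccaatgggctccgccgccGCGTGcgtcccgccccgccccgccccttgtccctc

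The core occurs 1 time before Car9, 2 times before Adm and Ddit4 and 5 times before Bnip3. It is short and common. Of the 19 decreased hypoxia genes, 17 had an upstream stretch in the RefSeq table and 16 of these (94.1%) held the core in at least 1 of their stretches. Of 8539 tested genes with a stretch, 63.9% did, and of 133 genes decreased outside chromosome 8, 58.6% did. Over all 32851 stretches of the table, 38.6% held it. A match of these letters is a description and not a binding site.

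Some glycolytic enzymes and glycogen enzymes were called decreased, beside 2.0% of all genes tested. In the glycolysis list, 5 of 18 genes fell, with a median log2 fold change of -0.29. Of the 18, 17 were below 0, and 16 were lower and 1 higher at an unadjusted p below 0.05 in limma. Aldoc, a brain-type aldolase, was at 49.5 and 53.7 TPM in the controls and at 19.5 and 18 TPM in the sg495 libraries (log2 fold change -1.41, SE 0.0753, limma adjusted p = 0.000803). Eno2, an enolase, Hk2, which traps glucose in the cell, Pfkp, a phosphofructokinase, and Slc16a3, the lactate exporter, had log2 fold changes of -0.81, -0.68, -0.59 and -0.59. Beside them, Slc2a1, the main glucose transporter, fell from 88.0 and 93.3 TPM to 52.9 and 54.9 TPM, and Pdk1, a kinase that keeps pyruvate from the mitochondrion, fell from 125 and 109 TPM to 60.2 and 58.1 TPM (log2 fold change -0.97). Of 15 glycogen genes, listed after values had been seen, 4 fell: Pygl, a phosphorylase that breaks glycogen down (-1.24), Epm2a, the phosphatase laforin (-1.17), Gbe1, the branching enzyme (-0.79), and Gys1, glycogen synthase (-0.66), all as log2 fold changes. The decreased enzymes thus included ones of synthesis and of breakdown. The other 11 had log2 fold changes down to -0.50, the value of Ugp2.

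Some of the decreased genes have roles in immunity. Of 27 tested interferon-stimulated genes, 3 fell, 24 were not called and none rose by limma, beside 2.0% and 0.750% of all genes that fell and rose. At an unadjusted p below 0.05, 9 were lower and 2 higher. Estimates of 22 were below 0 and those of 5 above 0, up to the 0.58 of Cxcl10, and the list's median log2 fold change was -0.20. H2-K1, a class I antigen-presenting molecule (GRCm38 chr17:33996017-34000347, minus strand), was at 32.2 and 30.4 TPM in the controls and at 8.55 and 6.69 TPM in the sg495 libraries (log2 fold change -1.91, SE 0.147, limma adjusted p = 0.00187). Oas1a, a sensor of double-stranded RNA, was at 2.66 and 3.02 TPM in the controls and 0.20 and 0.50 TPM in the sg495 libraries (log2 fold change -1.52, limma adjusted p = 0.00754, and 0.0566 without control 2). Trim25, a ubiquitin ligase of antiviral signaling, fell by 0.67 on the log2 scale. H2-K1 and Oas1a were among the 25 largest decreases outside chromosome 8, which were chosen with groups apart. The class I genes did not move alike. In a list written after values were seen, H2-K1, H2-T23 and H2-Q4 fell (log2 fold changes -1.91, -1.20 and -0.73), whereas H2-D1, the other classical class I gene, was at 48.0 and 49.4 TPM in control and 43.9 and 43.8 TPM in sg495 cells (log2 fold change -0.15, limma adjusted p = 0.361). B2m, the shared light chain, had a log2 fold change of -0.30 (adjusted p = 0.0124). Class I genes are near-identical in sequence, and reads shared among them may have been divided unequally, so single values in this family are uncertain.

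Other decreased immune genes lie outside the interferon list. Pycard, the adaptor of inflammasomes, was at 46.2 and 57.5 TPM in the controls and at 17.2 and 16.4 TPM in the sg495 libraries (log2 fold change -1.56, SE 0.114, limma adjusted p = 0.00184). Il18, a cytokine that inflammasomes release, fell from 2.69 and 2.56 TPM to 0.92 and 1.14 TPM (log2 fold change -0.84). Tnfrsf9, a costimulatory receptor best known from T cells, fell from 5.26 and 5.03 TPM to 1.6 and 1.52 TPM (log2 fold change -1.26), and Aire, the regulator of self-antigen expression in the thymus, from 7.74 and 9.03 TPM to 2.28 and 3.24 TPM (log2 fold change -1.33, adjusted p up to 0.0606 without control 2). The complement genes C2 and C1s1 fell by 0.67 and 0.71 on the log2 scale. Cd276, an inhibitory checkpoint ligand, fell by 1.05 and Nfkbiz, a nuclear regulator of inflammatory genes, by 0.68. The summed leukocyte marker level was 6.11 and 5.99 TPM in the controls and 9.12 and 8.11 TPM in the sg495 libraries, so it moved the other way, and its part in these values was not tested. Il18, C2, C1s1 and Cd276 were chosen after their values were seen.

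In lists of stress genes that respond to amino acid shortage or oxidants, a minority of members were called decreased, beside 2.0% of all genes tested. In the list of ATF4 targets and amino acid genes 4 of 24 fell, and the median log2 fold change was 0.01. They were Slc7a11, the cystine importer, at 5.87 and 4.08 TPM in control and 1.44 and 1.04 TPM in sg495 cells, Nupr1, a stress-induced chromatin protein (log2 fold change -1.39), Trib3, a pseudokinase (log2 fold change -1.33), and Atf5, a transcription factor (log2 fold change -0.63). The calls of Slc7a11, Nupr1 and Trib3 were lost without 3, 3 and 4 of the 4 libraries, with adjusted p-values of up to 0.0877, 0.0929 and 0.175. For Slc7a11 these were control 1, sg495 1 and sg495 2, and for Nupr1 control 1, control 2 and sg495 2. Of 17 glutathione transferases, listed after values were seen, 4 fell: Mgst1, from 49.1 and 46.1 TPM to 19.5 and 26.2 TPM, Gsta4 (log2 fold change -1.02), Gsta2 (-0.65) and Gstt3 (-0.59). The median log2 fold change of the 17 was -0.36, and 15 of them were below 0. At an unadjusted p below 0.05 in limma, 11 were lower and 2 higher. Several of these genes are close copies that can share reads. Of 23 genes of oxidative stress and metal handling, Hmox1 and Nqo1 fell, and both lie on chromosome 8.

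Immediate early genes were divided. Ier3, a survival factor, was at 279 and 286 TPM in the controls and at 108 and 101 TPM in the sg495 libraries (log2 fold change -1.43, SE 0.047, limma adjusted p = 0.000341). Atf3 and, on chromosome 8, Jund fell by 0.69 and 0.79 on the log2 scale. The other 14 of 17 tested members were not called, and the median of the list was -0.11. Of the 17, 8 were lower and 2 higher at an unadjusted p below 0.05 in limma. Of all genes tested 2.0% were called decreased. Ccng2, an unconventional cyclin linked to cell cycle exit, fell from 23.0 and 22.4 TPM to 6.07 and 7.83 TPM (log2 fold change -1.58, limma adjusted p = 0.00323).

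Matrix and secreted proteins were decreased singly rather than as a list. Loxl2, which crosslinks collagen, was at 13.2 and 11 TPM in the controls and 3.57 and 2.99 TPM in the sg495 libraries (log2 fold change -1.61, SE 0.124, limma adjusted p = 0.00187). Loxl2 and Fkbp10 were the 2 of 19 tested collagen folding and modifying enzymes that fell, none rose, and the median of that list was -0.01. Col5a1, a chain of type V collagen, fell by 0.67 on the log2 scale and was the 1 decreased gene among 20 collagens and matrix genes. Tinagl1, described with the increased genes, was the 1 increased member of these 20, whose median was 0.07, with 3 lower and 7 higher at an unadjusted p below 0.05. Over all genes tested 2.0% fell and 0.750% rose. Fstl1, a secreted glycoprotein, fell from 11.2 and 9.51 TPM to 2.61 and 4.51 TPM (log2 fold change -1.34), with the call lost without control 1 or control 2 (adjusted p up to 0.0886). Enpp2, also called autotaxin, which makes lysophosphatidic acid outside the cell, fell from 19.6 and 17.8 TPM to 6.78 and 7.60 TPM (log2 fold change -1.27). Postn, a matrix protein and a fibroblast marker, fell by 0.70 on the log2 scale, while the summed fibroblast markers stood at 33.1 TPM in both controls and at 28.0 and 28.1 TPM in the sg495 libraries. Sparcl1, Serpinf1, Hpse and Edil3, chosen after their values were seen, fell by 0.75, 0.74, 1.08 and 0.66 on the log2 scale.

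Signaling and cytoskeletal genes among the largest decreases were spread over several pathways. Gng11, a gamma subunit of heterotrimeric G proteins, was at 24.5 and 25.95 TPM in the controls and at 8.81 and 8.68 TPM in the sg495 libraries (log2 fold change -1.43, SE 0.0732, limma adjusted p = 0.00078). Prex2, an exchange factor of Rac, fell from 13.5 and 12.9 TPM to 4.74 and 4.56 TPM (log2 fold change -1.33). Tmsb4x, a protein that holds actin monomers, fell from 24.1 and 24.95 TPM to 9.88 and 8.11 TPM (log2 fold change -1.36). Zfp395, a zinc finger protein, fell from 2.73 and 2.26 TPM to 0.49 and 0.41 TPM (log2 fold change -1.27), and lost its call without control 1 or sg495 2 (adjusted p up to 0.0517). Spry1, a feedback inhibitor of receptor tyrosine kinases, and Epha3, an ephrin receptor, fell by 0.79 and 0.80 on the log2 scale. Of 12 tested MAPK feedback genes, Spry1 was the 1 that fell and Ccnd1, described with the increased genes, the 1 that rose. Over all genes tested 2.0% fell and 0.750% rose. The median of the 12 was 0.23, with 8 estimates above 0 and 4 below 0. At an unadjusted p below 0.05 in limma, 2 were lower and 7 higher. Lipid genes included Scd1, a fatty acid desaturase, and Apoe, a lipid carrier, which fell from 872 and 853 TPM to 525 and 533 TPM (log2 fold change -0.70). In the fatty acid synthesis list only Scd1, of 16 tested, was called (log2 fold change -0.78).

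By function, 109 of the 183 genes decreased outside chromosome 8 were sorted by hand into 10 groups after their values were seen. The largest groups were the oxygen response and transcription or chromatin regulators, with 16 genes each, followed by innate immunity with 13 and signal transduction with 13. Glucose and glycogen metabolism held 11 genes, lipid metabolism 10, matrix proteins 10, cytoskeleton and polarity 8, immune surface molecules 7 and glutathione or thiol metabolism 5. Log2 fold changes within groups ran from -1.89 to -0.60 in the oxygen response and from -1.27 to -0.63 among transcription regulators. The transcription regulators included Hoxb9 and Hoxa11, homeobox factors of body patterning (log2 fold changes -1.17 and -0.81), Dbp, a clock output factor (-0.71), and Kdm5b, a histone demethylase (-0.75), chosen after their values were seen. The other 74 genes were placed in no group, among them the long noncoding RNA Neat1, a scaffold of nuclear paraspeckles, which fell from 27.4 and 28.1 TPM to 17.0 and 17.2 TPM. These counts describe a sorting by eye and carry no test.

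Many of the smaller changes named here rested on all of the libraries. Besides the genes of the hypoxia list and the largest changes, 103 called genes were examined with each library left out. Of these, 36 kept their call each time, among them Mgarp, Hpse, Gsta4, Hk2, Gys1, Epm2a, Scd1, Apoe, Bhlhe40, Epha3, Sparcl1, Serpinf1, C2, Neat1, Mcam and Trpm1. The other 67 lost it at least 1 time, and none changed direction. Hoxa11, C1s1, Trim25, Edil3, Ctgf and Sema3c lost it without any 1 of the 6 cultured libraries (limma adjusted p up to 0.186). H2-T23, Hoxb9, Il18, Eno2, Spry1, Kdm5b, H2-Q4, Postn, Atf3, Nfkbiz, Col5a1, Vhl and Id1 lost it without any 1 of the 4 control and sg495 libraries (adjusted p up to 0.151). Pygl, Mgst1 and Fabp7 lost it without control 1, control 2 or sg495 1, Pgf without control 1, control 2 or sg495 2, Cd276 and Siah1a without control 1, sg495 1 or sg495 2, and Dbp without control 2, sg495 1 or sg495 2 (adjusted p up to 0.123). Apln kept it only without sg492 1, Gsta2 only without sg495 1 and Gstt3 only without control 1 (adjusted p up to 0.166). Epas1, Nqo1 and Nrp1 lost it without sg495 1, Atf5 without sg495 2, Pfkp without control 2, and Slc16a3 without control 2 or sg495 1.

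In 12 lists limma called no member. The lists leaned to different sides at an unadjusted p below 0.05. Of 31 lysosomal genes 16 were lower and 1 higher, and 26 had estimates below 0. Of 89 nuclear-encoded genes of the respiratory chain 11 were lower and 2 higher. Of 80 ribosomal proteins 4 were lower and 19 higher, and 70 had estimates above 0. Of all genes tested, 1809 were lower and 1523 higher at that threshold. Among the 12 lists were also 31 DNA replication genes and 24 mitosis genes, with medians of -0.05 and -0.04. The same held for 20 chaperones of the endoplasmic reticulum and 17 heat shock chaperones, and for lists of Wnt and Notch signaling, histones and endothelial markers. Medians over the lists of chaperones, lysosomal genes, ribosomal proteins and the respiratory chain ran from -0.14 for lysosomal genes to 0.10 for heat shock chaperones. All 13 protein genes of the mitochondrial genome had log2 fold changes above 0, with a median of 0.35. None was called, and 9 were higher at an unadjusted p below 0.05. Their share of all TPM can move with the total of other transcripts; mitochondrial genes took 2.91% and 2.56% of the TPM in control and 3.65% and 3.16% in sg495 libraries. In the cholesterol synthesis list 22 of 23 genes were below 0, beside 50.2% of all genes tested, with a median of -0.37. At an unadjusted p below 0.05, 19 were lower and 0 higher. The 2 that were called, Mvd and Msmo1, lie on chromosome 8, whereas 21 of the 23 lie outside it. Of 22 pigment cell genes, Mc1r on chromosome 8, the melanocortin receptor, fell (log2 fold change -0.70), Trpm1, a cation channel, rose (0.81), and the median was 0.01. In the large families, 5 of 166 solute carriers and 3 of 303 Zfp zinc finger genes fell, near or below the share of all genes. Single members were called in the lists of p53 targets (Phlda3 rose), YAP or SRF targets (Ctgf rose), NF-kB targets (Nfkbiz fell) and tubulins (Tubb3 on chromosome 8 fell). Among axon guidance genes Epha3 and, on chromosome 8, Nrp1 fell and Sema3c rose, and the 2 decreased nuclear receptors were Nr2f6 and Rora.

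**Figure D3:**
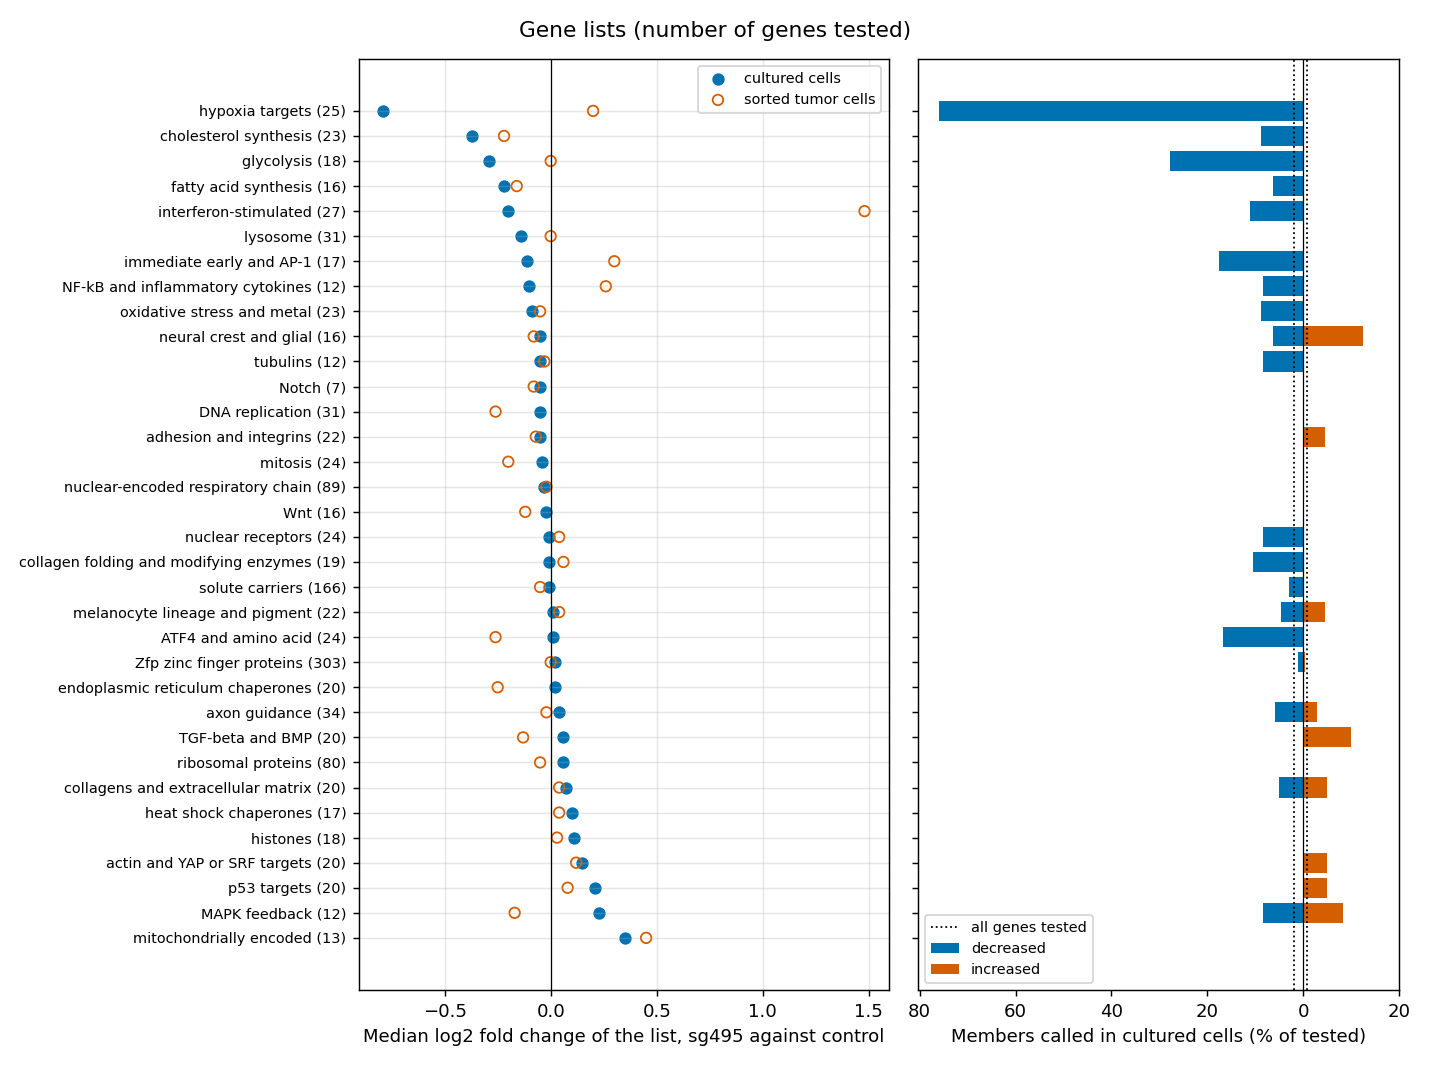
Left, median log2 fold change of sg495 against control for the gene lists other than those of leukocytes, fibroblasts and endothelial cells (number of tested genes in parentheses), filled blue for cultured cells and open orange for sorted tumor cells. Right, percent of the tested members that were decreased (blue, to the left) or increased (orange, to the right) in cultured cells, with dotted lines at the shares of all genes tested. The hypoxia list has the lowest cultured median, -0.79, while its sorted median is 0.20.

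The increased genes were fewer, and 68 of the 90 were protein-coding. Log2 fold changes of the 90 reached 4.97, and the 12 largest increases described here are those of protein-coding genes with a gene name, leaving out symbols of the form Gm and a number or ending in Rik. Lims2, an adaptor of integrin-linked kinase, was at 4.07 and 4.86 TPM in the controls and at 17.5 and 19.1 TPM in the sg495 libraries (log2 fold change 1.82, SE 0.115, limma adjusted p = 0.00155). Pmp2 and Mbp, proteins of myelin, rose from 1.64 and 1.40 TPM to 8.08 and 7.58 TPM and from 8.56 and 9.17 TPM to 18.9 and 23.3 TPM. Ngfr, the low-affinity neurotrophin receptor of neural crest cells, was at 0.98 and 1.12 TPM in control and 4.40 and 3.90 TPM in sg495 cells (log2 fold change 1.33, limma adjusted p = 0.00681, and 0.0608 without sg495 1). Ngfr and Mbp were the increased members of 16 neural crest and glial genes, of which Fabp7, a fatty acid carrier of glia, fell (log2 fold change -0.60). Of all genes tested 0.750% rose and 2.0% fell. The median of these 16 was -0.05, with 11 estimates below 0 and 5 above 0. At an unadjusted p below 0.05 in limma, 4 of the 16 were lower and 4 higher. Lims2, Pmp2, Mbp and Ngfr were among the 12 largest increases, which were chosen with groups apart.

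Id3 and Id1, inhibitors of helix-loop-helix factors that are induced by BMP signals, rose by 1.33 and 0.91 on the log2 scale. They were the 2 called of 20 TGF-beta and BMP genes, beside 0.750% of all genes tested that rose. The median of the 20 was 0.06, with 13 estimates above 0 and 7 below 0. At an unadjusted p below 0.05 in limma, 1 was lower and 6 were higher. Id3 lost its call without control 2, sg495 1 or sg495 2 (adjusted p up to 0.0698). Ccnd1, the cyclin that drives entry into S phase, rose from 65.7 and 65.1 TPM to 127 and 125 TPM (log2 fold change 0.93, SE 0.0424, limma adjusted p = 0.000705). Mcam, an adhesion molecule of melanoma, rose from 54.6 and 52.9 TPM to 100.49 and 100.0 TPM (log2 fold change 0.89), and Tinagl1, a matrix protein, from 21.7 and 21.6 TPM to 44.0 and 45.2 TPM (log2 fold change 1.01). Atoh8, Tnnt2, Cfap100, Clu and Lyz2, all below 10 TPM, completed these 12 with log2 fold changes of 0.97 to 1.36, and each lost its call without 2 or more libraries (adjusted p up to 0.147). Those libraries were control 1 and sg495 1 for Atoh8, all 4 of control and sg495 for Cfap100, all 6 for Tnnt2, all but control 1 for Clu and all but sg492 2 for Lyz2. Lyz2 is also a myeloid marker and was the 1 increased member of the leukocyte list, of which 4 of 21 genes were tested. It stood at 0.79 and 0.92 TPM in control and 3.07 and 2.23 TPM in sg495 cells.

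On chromosome 8 the 5 largest decreases of protein-coding genes were Ankrd37, given above, Maf, Fcor, Plekha2 and Kbtbd11. Maf, a leucine zipper transcription factor, was at 7.31 and 7.57 TPM in the controls and 1.34 and 1.76 TPM in the sg495 libraries (log2 fold change -1.73, SE 0.125, limma adjusted p = 0.00184). Fcor, Plekha2 and Kbtbd11 had log2 fold changes of -1.47, -1.32 and -1.30, which were larger in size than the chromosome's median. Fcor lost its call without control 2 or sg495 2 (adjusted p up to 0.0587).

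Many of the decreases seen in culture, the hypoxia genes among them, did not appear to the same extent in tumor cells sorted from tumors. The difference between the sg495 effect in cultured cells and that in sorted tumor cells was tested as an interaction in a limma fit of 18 libraries. It was lower in culture for 185 genes (1.54%) and higher for 86 (0.717%), and lower for 81 of the 183 genes decreased outside chromosome 8, which had been selected on their values in culture. Of the 25 hypoxia genes, 17 had a lower effect in culture, and the list's median log2 fold change in sorted cells was 0.20, with 23 members above 0. Over all 11997 genes tested the sorted median was -0.05, with 4919 above 0. Bnip3 stood at 493 and 622 TPM in sorted controls and at 641 and 708 TPM in sorted sg495 cells, so the groups did not overlap and lay in the opposite order to culture (difference of the effects -1.78, SE 0.318, limma adjusted p = 0.0105). Car9 was at 308 and 333 TPM in sorted controls and 415 and 411 TPM in sorted sg495 cells, levels far above the 14.6 and 16.1 TPM of cultured controls (difference -2.26, adjusted p = 0.00286). The hypoxia list as a whole had no such gap, with a median level of 90.9 and 108 TPM in sorted controls and 83.9 and 79.7 TPM in cultured controls. Adm had a log2 fold change of 0.60 in sorted cells (difference -2.39, adjusted p = 0.000623). Sorted cells came from tumors and cultured cells from a dish, and growth condition, isolation and the effect of the host cannot be told apart here.

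The comparison with sorted cells depended on single libraries. Sorted sg495 library 1 stood apart, with 8.02% of its TPM from mitochondrial genes and 10.3% from its 10 most abundant genes, against 3.82% to 4.03% and 7.07% to 7.26% in the other 3 sorted libraries of control and sg495. Without it the effect was lower in culture for 171 genes, for 65 of the 183 and for 13 of the 25 hypoxia genes, whose sorted median was then 0.25, with 22 above 0. With each of the 8 libraries of cultured and sorted control and sg495 left out in turn, the hypoxia count fell from 17 to between 4 and 13. It was 7, 5, 7 and 4 without cultured control 1, control 2, sg495 1 and sg495 2, and 7, 11, 13 and 8 without the same libraries of sorted cells. The count for the 183 genes fell from 81 to 42, 34, 44 and 34 and to 43, 49, 65 and 54 in that order. Without sorted control 1 only 14 of the 25 hypoxia genes were above 0 in sorted cells, with a median of 0.07, and without sorted sg495 2 there were 16, with a median of 0.17. Car9 and Adm passed the test each time, and Bnip3 did not without cultured control 2 or sg495 2 (limma adjusted p up to 0.0539).

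Most class I and interferon genes had estimates above 0 in sorted cells and below 0 in culture, although few were called in culture. Of the 27 interferon-stimulated genes, 21 were below 0 in culture and above 0 in sorted cells, 5 were above 0 in both and 1 was below 0 in both. Of the 9 class I genes, 8 were below 0 in culture and above 0 in sorted cells. Tapbp, a loading factor of class I molecules, was above 0 in both, with a log2 fold change of 0.08 in culture (adjusted p = 0.759) and 2.7 in sorted cells. The culture values of H2-D1, Erap1 and Psmb10 did not pass the test either (adjusted p = 0.361, 0.575 and 0.471). H2-K1 stood at 71.7 and 70.5 TPM in sorted controls and at 304 and 369 TPM in sorted sg495 cells (difference of the effects -4.13, SE 0.375, limma adjusted p = 0.000312). Oas1a stood at 6.45 and 3.93 TPM in sorted controls and at 14.8 and 17.2 TPM in sorted sg495 cells (difference -3.0, adjusted p = 0.00191). The median of the interferon list was 1.48 in sorted cells, where 26 of the 27 genes were above 0, and 19 of the 27 passed the interaction test, or 17 without sorted sg495 1 and 14 to 19 with any 1 of the 8 libraries left out. H2-K1 and Oas1a passed each time. The summed level of the 21 leukocyte genes was 12.1 and 10.3 TPM in sorted controls and 15.9 and 20.1 TPM in sorted sg495 cells, and its part in these values was not tested.

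Of the 25 largest decreases outside chromosome 8, 19 had a lower effect in culture than in sorted cells, and 6 did not pass the test: Slc7a11, Nupr1, Tmsb4x, Fstl1, Trib3 and Zfp395. The 25 had been chosen by their values in culture, which also enter the difference, so this count describes them only. It was 17 without sorted sg495 1 and ranged from 11 to 17 with 1 library left out, the lowest without cultured sg495 2. Fstl1, Slc7a11 and Pycard had sorted log2 fold changes of -1.02, -0.79 and -0.73, the lowest of the 25. Among the 12 largest increases, Tinagl1, Mbp and Clu had sorted values of 0.99, 1.32 and 1.01 beside 1.01, 1.16 and 1.00 in culture, with differences of 0.02, -0.16 and -0.01 (adjusted p = 0.963, 0.767 and 0.994). Nr2f6 had a log2 fold change of -0.69 in sorted cells (difference 0.05, adjusted p = 0.917).

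**Figure D4:**
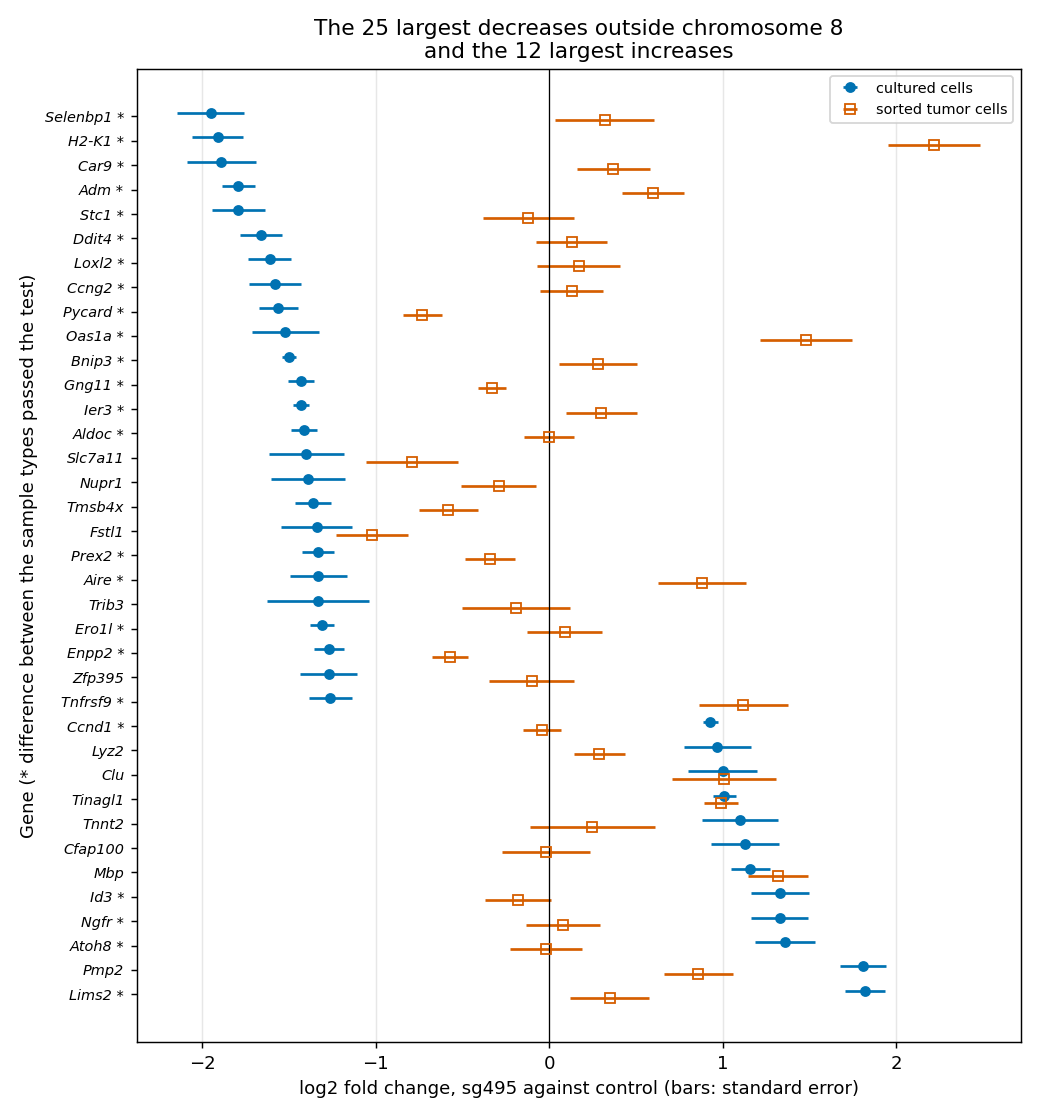
Log2 fold change of sg495 against control (horizontal axis) of the 25 largest decreases outside chromosome 8 and the 12 largest increases in cultured cells, with filled blue circles for cultured cells and open orange squares for sorted tumor cells. Bars are standard errors from limma, from the fit of 6 libraries for cultured cells and the fit of 18 libraries for sorted cells. The bars of sorted cells therefore also draw on the spread of cultured and bulk libraries. Asterisks mark genes whose difference between the sample types passed the test. H2-K1, Oas1a, Aire and Tnfrsf9 are left of 0 in culture and right of 0 in sorted cells.

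The sg492 guide shares its control libraries with sg495, so its values are given only side by side. In cultured sg492 cells 3 genes fell (0.0250%) and 2 rose (0.0167%). Nr2f6 was at 26.6 and 31.5 TPM there (log2 fold change -0.16). Bnip3 was at 331 and 317 TPM (log2 fold change -0.49 for sg492 beside -1.50 for sg495), Car9 at 10.2 and 8.91 TPM (-0.63 beside -1.89), and H2-K1 at 20.4 and 15.9 TPM (-0.76 beside -1.91). Pycard, Maf and Enpp2 had sg492 values of -0.14, -0.10 and 0.54 beside -1.56, -1.73 and -1.27 for sg495. The difference between the guides was not tested.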

How the data were processed

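Libraries of polyadenylated RNA were read from 1 end. Per the labels, the submitters' notes name Cutadapt 2.3, STAR 2.7.0d, RSEM 1.3.1 and the mm10 build, and the authors deposited TPM for each gene and library. The authors also tested RSEM estimated counts with DESeq2; those counts were not used here, so that test was not repeated. TPM keep no total, so depth is unknown from the table and no counting interval was derived.

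TPM were taken as log2(TPM + 1). Genes averaging 1 TPM or more in the 2 sg495 and 2 control cultured libraries were fitted with limma 3.58.1 in R 4.3.3 (1 mean for each of control, sg492 and sg495, 6 libraries, eBayes with a trend, 2-sided). Benjamini-Hochberg adjustment ran over all 11997 genes, and calls required an adjusted p below 0.05 together with a 1.5-fold change. The same genes were fitted in 18 libraries for the interaction with sorted tumor cells. Positions came from GENCODE M21 (GRCm38), which holds 47224 of the genes. Of the 11997 genes, 29 were not found there, 1 of them decreased, and these were counted neither on nor outside chromosome 8. Upstream stretches came from RefSeq on GRCm38. Fits were tested on simulated data. Tables and plots used Python 3.11.15, pandas 2.3.3 and matplotlib 3.10.9.

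Named genes were those the study follows, the 25 largest decreases of protein-coding genes outside chromosome 8, the 12 largest increases and the 5 largest decreases on chromosome 8, each with groups apart, and called members or defining genes of the 37 lists. Symbols of the form Gm and a number or ending in Rik were passed over. The members and lists were chosen with earlier results of these data known. Alternatives were a pseudocount of 0.1, quantile normalization, scaling by the median of ratios, no filter or one at a mean of 5 TPM, fits of 4 or 18 libraries (8 for the interaction), a replicate block, no fold threshold, eBayes without a trend, and each library left out. Leaving out libraries in the interaction was added after the values were seen. A library left alone in its group was assumed to vary like the other groups.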

Additional observations from a re-analysis of the deposited data

Results flagged for a closer look

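The results below differed between cultured and sorted tumor cells by the interaction test in limma, with adjusted p-values of up to 0.0446. Each value is the log2 effect of sg495 in cultured cells minus that in sorted tumor cells. The genes were chosen in part by their effect in culture, which enters the difference. Of the 37 genes below, 14 passed the test without any 1 of the 8 control and sg495 libraries: Car9, Adm, Ddit4, Vegfa, H2-K1, Oas1a, Aire, Tnfrsf9, Ccng2, Gng11, Ier3, Aldoc, Kbtbd11 and Ccnd1. Without sorted sg495 1, which stood apart, 30 passed and Stc1, Enpp2, Ngfr, Pdk1, Bnip3l, Higd1a and Kdm3a did not (adjusted p up to 0.0799). Among oxygen response genes the difference was -2.27 for Selenbp1, -2.26 for Car9, -2.39 for Adm, -1.66 for Stc1, -1.79 for Ddit4, -1.78 for Bnip3, -1.40 for Ero1l, -0.94 for Fam162a, -0.99 for Pdk1, -0.90 for Bnip3l, -1.51 for Vegfa, -0.79 for Mxi1, -1.30 for Slc2a1, -1.16 for Egln1, -0.89 for Rora and -1.06 for Higd1a. Kdm3a and Jmjd6, which were not called in culture, had differences of -0.63 and -0.88.

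Among immune genes the difference was -4.13 for H2-K1, -3.0 for Oas1a, -0.83 for Pycard, -2.21 for Aire and -2.38 for Tnfrsf9. It was -1.79 for Loxl2, -1.71 for Ccng2, -1.10 for Gng11, -1.73 for Ier3, -1.41 for Aldoc, -0.99 for Prex2 and -0.70 for Enpp2. On chromosome 8 it was -1.54 for Plekha2 and -1.60 for Kbtbd11. Differences above 0 were 1.48 for Lims2, 1.39 for Atoh8, 1.25 for Ngfr, 1.5 for Id3 and 0.97 for Ccnd1. The remaining 26 genes named by size, followed by the study or in the hypoxia list did not pass this test.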

How the results depend on the processing

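Of 25 hypoxia genes, 15 to 19 were decreased when 1 library was left out and 18 to 23 under the other alternatives. The median of chromosome 8 was -0.234 without the expression filter and ranged from -0.349 to -0.326 when 1 library was left out. Increased genes numbered 57 without the filter and 58 in the fit of 18 libraries. With no fold threshold 896 genes were decreased, 568 of them outside chromosome 8, and 545 were increased. Without the filter the adjusted p of Nr2f6 was 0.0674 at an unchanged log2 fold change of -0.64. With 1 library left out, decreased genes numbered 125 to 218, decreased genes outside chromosome 8 numbered 91 to 165, increased genes numbered 36 to 80, and the log2 fold change of Nr2f6 was -0.77 to -0.51. Of the 25 largest decreases outside chromosome 8, 17 kept their call without any 1 library, as did 5 of the 12 largest increases. No named gene or list count reversed direction under the alternatives run. Same-numbered libraries did not deviate together (r = 0.015, 0.038 and 0.02), so the numbers were not taken as pairs. With a replicate block 216 genes were decreased, 162 of them outside chromosome 8, 75 were increased, and the adjusted p of Nr2f6 was 0.0159. The calls of Fkbp10 and Tnnt2 were not made with the block (adjusted p = 0.0743 and 0.052). Of the 25 largest decreases, 16 to 20 had a lower effect in culture than in sorted cells under the alternatives of the interaction that kept every control and sg495 library, beside 19, and 11 to 17 did with 1 of 8 libraries left out, a choice made after seeing the data. Depth could not be weighed from TPM.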
